A study of Homo sapiens with 4 samples.

Results

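Expression of 10 S100 family genes was followed in single cells during a course of 17β-estradiol (E2), the main estrogen. The cells belonged to the established lines Ishikawa, from an adenocarcinoma of the human endometrium, and T-47D, from a ductal carcinoma of the human mammary gland. The genes were S100A8, S100A9, S100A4, S100A6, S100A10, S100A11, S100A13, S100A14, S100A16 and S100P. They were found by symbol, 1 row each, among the 33540 features of the Ishikawa matrix and the 33538 features of the T-47D matrix. The set was chosen by its uneven distribution over T-47D cells, so the concentration of S100A8 in a few cells is a description here and no test was made of it.

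Each line was grown without hormones for 5 days, per the study's methods, and then given DMSO, the vehicle, as the 0 h culture, or 10 nM E2 for 2, 4 or 8 h. All cells of a line shared this hormone-depleted start, and the 0 h cells received no E2. MULTI-seq, which marks cells with lipid-anchored DNA barcodes, labelled the 4 cultures of a line before they were mixed into 1 droplet library. Expression was counted in unique molecular identifiers (UMIs), each marking 1 captured transcript at its 3′ end, so that levels of different genes are not scaled by length. Each line and time point was 1 culture. There were therefore no replicates and no test was possible, and the 95% intervals given cover counting error only.

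After the study's limits on UMIs, genes and mitochondrial share, 4613 Ishikawa cells remained (776, 1480, 892 and 1465 at 0, 2, 4 and 8 h) and 4626 T-47D cells (1525, 1207, 1341 and 553). The pools held 12927799 to 33175309 UMIs, and median UMIs per cell ranged from 19121.5 to 22576. The libraries shared 80 cell barcodes, 5 of them among kept cells. At 0 h, 18 of 24 luminal and apocrine genes were at 10 CPM (UMIs per 1000000 UMIs of the pool) or more in T-47D and 10 in Ishikawa. Of 18 endometrial genes, 14 were at that level in Ishikawa and 10 in T-47D. The summed luminal level was higher in T-47D (15164 against 4959 CPM). The summed endometrial level was also higher in T-47D (12976 against 5347 CPM), so that list did not set Ishikawa apart by level. Both lists were drawn up with EPCAM, KRT8 and KRT18, so their sums are not independent. Of 20 markers of blood myeloid cells, none reached 10 CPM in any pool, and their summed level was 2.11 to 2.79 CPM in T-47D and 3.40 to 6.68 CPM in Ishikawa. The estrogen targets were listed with earlier results of these data known, so they are no independent check of the time labels. In T-47D, 5 of 6 tested targets were at least 1.5-fold higher at each of 2, 4 and 8 h. Of all genes tested there, 1.64%, 1.69% and 3.06% were past 1.5-fold in either direction. In Ishikawa 1 of 2 tested targets, TGFA, was past it at each time and PEG10 was not, beside 1.45%, 1.26% and 1.28% of genes.

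S100 proteins are small calcium-binding proteins with EF-hand motifs that pair with each other and, on binding calcium, with partner proteins. S100A8 and S100A9 form the heterodimer calprotectin, abundant in neutrophils and monocytes and induced in stressed or differentiating epithelium, where it binds metal ions and acts outside the cell through RAGE (AGER) and TLR4. The other members act mostly inside the cell, S100A10 and S100A11 with annexins at membranes, S100A6 with the ubiquitin-ligase adaptor CACYBP, and S100A4 with nonmuscle myosin.

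Of the 10 members, 9 lie on chromosome 1 between positions 151982915 and 153634361 (RefSeq, GRCh38.p14, the same build as the hg38 of the files), a stretch of 1651 kb that also holds further S100 genes. S100P lies on chromosome 4 at 6693878 to 6697170. S100A9 (chr1:153357854-153361023, plus strand) and S100A8 (chr1:153390032-153422583, minus strand) face each other across 29008 bases, with S100A12 between them. Their promoters are shown because these genes were found in the same cells. The 250 bases before the RefSeq start are given 5′ to 3′ on the strand of the gene, with a TATA box (TATAAA) and matches to a C/EBP-type motif (TTNNGNAA) in capitals. S100A8 has 3 listed starts, and the start with a TATA box near it was used (window chr1:153391074-153391323). The window of S100A9 is chr1:153357604-153357853.
S100A8: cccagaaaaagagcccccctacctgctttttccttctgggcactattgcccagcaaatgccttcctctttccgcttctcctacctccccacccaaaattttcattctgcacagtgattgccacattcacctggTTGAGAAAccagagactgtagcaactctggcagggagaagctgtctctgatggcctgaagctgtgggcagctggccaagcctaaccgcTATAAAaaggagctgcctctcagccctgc
S100A9: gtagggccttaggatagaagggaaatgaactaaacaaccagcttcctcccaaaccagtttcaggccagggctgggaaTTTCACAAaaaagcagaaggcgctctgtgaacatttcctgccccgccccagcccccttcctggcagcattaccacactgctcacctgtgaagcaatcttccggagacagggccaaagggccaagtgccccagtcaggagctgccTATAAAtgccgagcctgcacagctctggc

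In both promoters the TATA box occupied bases 29 to 24 before the start, which for S100A8 follows from the choice of the start. Each window held 1 C/EBP-type match, at bases 117 to 110 in S100A8 and 173 to 166 in S100A9. Searched on both strands, the TATA box was found in 10.7% of 35116 RefSeq promoter windows of this length and the C/EBP-type motif in 33.2%. Neither window held the AP-1 motif TGANTCA (6.57% of windows), the palindromic estrogen response element (0.0399%) or the palindrome bound by other steroid receptors (0.327%). These are matches of letters, not sites of binding.

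S100A8 and S100A9 were expressed in T-47D and almost absent from Ishikawa. No S100A8 UMI was found in any of the 14985 Ishikawa barcodes. Among the kept Ishikawa cells this was 0 of 4613, which allows a share of up to 0.0650% of cells with a UMI (3 of 4613 cells). S100A9 had 1 UMI in 1 of these 4613 cells. In T-47D, S100A8 was at 48.1 CPM at 0 h (95% exact Poisson interval 45.8 to 50.5), 23.2 at 2 h (21.4 to 25.1), 21.2 at 4 h (19.6 to 22.9) and 31.9 at 8 h (28.9 to 35.2). S100A9 was at 69.4 CPM at 0 h (66.6 to 72.3), 67.0 at 2 h (63.9 to 70.2), 61.4 at 4 h (58.6 to 64.3) and 65.7 at 8 h (61.3 to 70.2). S100A9 was thus nearly level over the course, while the pooled S100A8 level was highest before E2.

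The S100A8 level of a pool rested on very few cells. S100A8 UMIs were found in 10.4%, 11.2%, 10.6% and 9.40% of T-47D cells at 0, 2, 4 and 8 h, a share that differed far less between time points than the pooled level did. The 1% of cells with the most S100A8 UMIs (16, 13, 14 and 6 cells) held 89.4%, 75.8%, 74.8% and 83.8% of all S100A8 UMIs of their time point. Genes of a similar level, 0.5 to 2 times that of S100A8, had medians of 5.86% to 8.05%, and none of the 3197 to 4138 such genes in a pool reached the share of S100A8. At 0 h, 1 cell held 1277 of the 1595 S100A8 UMIs, or 80.1%. That cell also held 365 S100A9 UMIs, 15.9% of the S100A9 UMIs of its time point. The richest cells of the other time points held 117 S100A8 UMIs at 2 h (19.0%), 333 at 4 h (53.0%) and 145 at 8 h (35.1%).

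**Figure D1:**
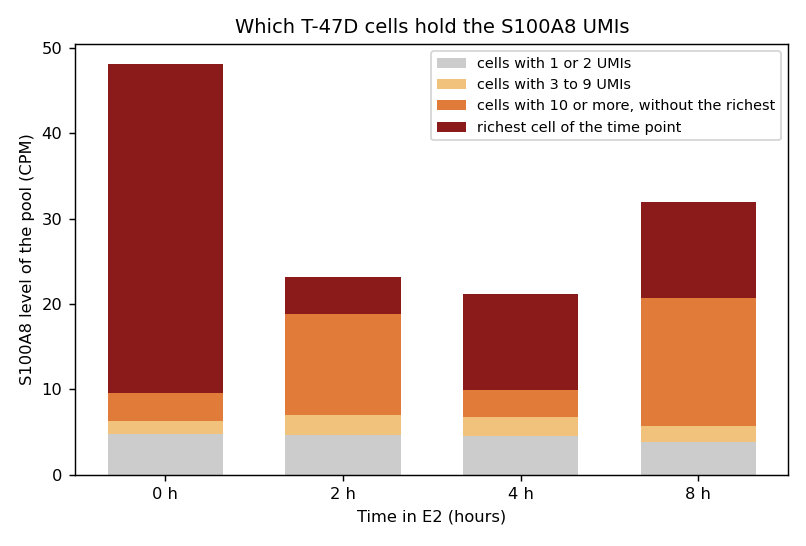
S100A8 level of each T-47D pool in CPM, stacked by the cells that hold the UMIs: cells with 1 or 2 S100A8 UMIs, cells with 3 to 9, cells with 10 or more without the richest, and the richest cell. The grey base stays between 3.79 and 4.73 CPM, while the richest cell supplies 80.1% of the UMIs at 0 h.

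The order of the S100A8 levels over time changed when these cells were left out. Against 0 h, the log2 fold change of S100A8 was -1.02 at 2 h, -1.15 at 4 h and -0.57 at 8 h, all on the log2(CPM + 1) scale. Without the richest cell of each time point, chosen after its values were seen, the levels were 9.60 CPM at 0 h (8.57 to 10.7), 18.8 at 2 h (17.2 to 20.6), 9.96 at 4 h (8.85 to 11.2) and 20.8 at 8 h (18.4 to 23.4). The 2 h and 8 h pools then stood above 0 h and the 4 h pool was level with it, with log2 fold changes of 0.90, 1.04 and 0.05. These levels still rested on few cells. At 8 h another cell held 130 of the 268 S100A8 UMIs left, and at 2 h another held 101 of 499. Without the 1% of cells with the most S100A8 UMIs, the log2 fold changes were 0.12, 0.054 and 0.0197 at 2, 4 and 8 h. Cells with 1 or 2 S100A8 UMIs contributed 4.73, 4.71, 4.52 and 3.79 CPM to the 4 pools, a level that differed little between time points. The lower pooled level after E2 was therefore not seen once the richest cell of each time point was left out.

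T-47D cells fell into a wide range of S100A8 counts. Of the 4626 kept cells, 4138 had no S100A8 UMI, 415 had 1 or 2, 50 had 3 to 9, and 23 had 10 or more. The 23 cells, called S100A8-rich here, made up 0.497% of the cells (95% exact Clopper-Pearson interval 0.315% to 0.745%) and held 79.4% of the S100A8 UMIs. The limit of 10 cuts a continuous range, with 4 cells at 10 to 12 UMIs just inside it and 5 cells at 7 to 9 just outside. S100A8-rich cells occurred at every time point, 7 at 0 h (0.459% of cells, 0.185% to 0.943%), 6 at 2 h (0.497%, 0.183% to 1.08%), 5 at 4 h (0.373%, 0.121% to 0.868%) and 5 at 8 h (0.904%, 0.294% to 2.10%). The intervals of these 4 shares overlap.

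RNA outside cells can give single UMIs in droplets whose cell does not express a gene. In the 2784 T-47D barcodes with under 2000 UMIs and no time point call, S100A8 was at 33.3 CPM, and 3.41% of them had a UMI at a median depth of 1023 UMIs. None of these barcodes had more than 2 S100A8 UMIs. In the kept cells with under 3 S100A8 UMIs the level was 4.63 CPM, and 10.5% of all kept cells had a UMI at a median depth of 21094 UMIs. The part that free RNA played in the cells with 1 or 2 UMIs was not tested. Counts below that take any S100A8 UMI, in co-detection and in the overlap with S100P, include these cells.

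S100A9 was higher in cells with more S100A8 UMIs. Its level was 50.02 CPM in cells with no S100A8 UMI, 97.9 CPM in cells with 1 or 2, 253 CPM in cells with 3 to 9 and 1631 CPM in the S100A8-rich cells. The share of cells with an S100A9 UMI was 48.4% (46.9% to 49.9%), 61.2% (56.3% to 65.9%), 92.0% (80.8% to 97.8%) and 100% (85.2% to 100%) in the same order. The same order of levels was seen at 0 h (49.6, 97.2, 173 and 2498 CPM), at 2 h (49.4, 106, 374 and 1527 CPM), at 4 h (49.7, 103.5, 156 and 1255 CPM) and at 8 h (53.1, 64.8, 441 and 831 CPM). The class medians of total UMIs ranged from 20970.5 to 23524.5.

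Co-detection over all cells gave the same picture. Most of the cells counted had only 1 or 2 S100A8 UMIs (415 of 488 with S100A8, 254 of 323 with both genes). Of 488 cells with an S100A8 UMI, 323 also had S100A9, or 66.2% (61.8% to 70.4%), against 48.4% of the cells without S100A8. In the 4163 cells with at least 14495 UMIs, thinned to that depth, these shares were 58.7% and 40.6%. By time point the unthinned shares were 62.9% against 48.1% at 0 h, 65.9% against 48.0% at 2 h, 70.4% against 48.1% at 4 h, and 65.4% against 50.9% at 8 h. Seen from S100A9, which was detected in 2326 cells, only 13.9% of its cells (12.5% to 15.4%) had an S100A8 UMI. Across the 4626 cells of this 1 library, Spearman's correlation between the genes was 0.16 and Pearson's r of the log2 values 0.38.

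The balance between these calprotectin subunits differed from cell to cell. In the S100A8-rich cells, the count of S100A8 per S100A9 UMI ranged from 0.323 to 11.2 with a median of 1.5, and 14 of the 23 cells had more S100A8 than S100A9. A 2 h cell had 101 S100A8 and 9 S100A9 UMIs, whereas another 2 h cell had 71 and 80. The lowest S100A9 count in an S100A8-rich cell was 3, in an 8 h cell with 29 S100A8 UMIs. In the other direction, 75 kept cells had 10 or more S100A9 UMIs. Of these, 19 were S100A8-rich and 27 had no S100A8 UMI at all.

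**Figure D2:**
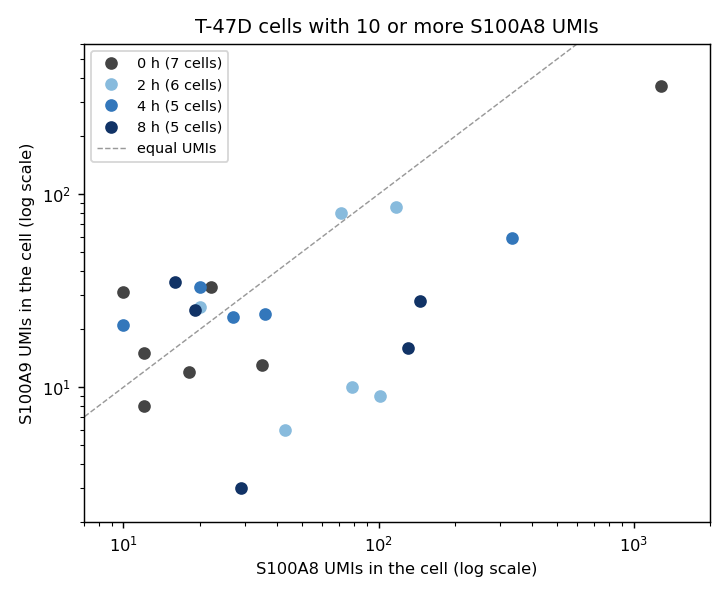
S100A9 against S100A8 UMIs in each of the 23 T-47D cells with 10 or more S100A8 UMIs, both axes on a log scale, coloured by time in E2. The dashed line marks equal counts; 14 cells lie below it, and the 0 h cell with 1277 S100A8 and 365 S100A9 UMIs lies apart from the rest.

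S100A8-rich cells carried genes of luminal epithelium and almost no myeloid markers. Keratins of luminal epithelium had like levels in the S100A8-rich and the other cells, with KRT19 at 7315 and 6294 CPM, KRT8 at 4174 and 3385 CPM and KRT18 at 4273 and 4104 CPM. GATA3, a luminal transcription factor, was at 523 and 484 CPM. PIP, an apocrine secretory protein, was at 989 and 756 CPM. Not every gene of the luminal and apocrine list was level. Of 18 tested, 2 were past 2-fold higher and 2 lower, TFF3 among the lower, beside 1.68% and 4.67% of all genes tested. Of the 20 myeloid markers, 19 had no UMI in the S100A8-rich cells, among them PTPRC (CD45), LYZ, CD14, CSF3R and S100A12, and VCAN had 5 UMIs, all in 1 cell. Median depth was 22357 UMIs in the S100A8-rich and 21083 in the other cells, and the median mitochondrial share was 7.40% and 10.2%. The S100A8-rich cells included an 8 h cell with 145 S100A8 UMIs and a mitochondrial share of 0.23%, and a 0 h cell at 0.21%.

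The genes that went with S100A8 were then described by summing UMIs over the 23 S100A8-rich cells and over all other kept T-47D cells, with S100A8 left out of the totals. Tested were 7218 genes with a mean of at least 10 CPM in these sums. Of these, 121 (1.68%) were at least 2-fold higher in the S100A8-rich cells and 337 (4.67%) at least 2-fold lower. A gene low in 1 sum could reach this minimum only through the other, which fixed its call in advance. AGPAT4 and CD36 among the higher genes, and SOAT1 and FTX among the lower, were examples. 1 UMI was worth 1.70 CPM in the S100A8-rich sum, so low values there carry wide counting error and the count of lower genes leans on genes at a few UMIs. Per time point, with 5 to 7 S100A8-rich cells each, 435 to 801 genes were past 2-fold higher and 768 to 1188 lower. The named genes are given with the number of time points that share their direction. The time points split the same cells by which the genes were chosen, so this number is a description only.

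S100A9 headed the higher genes at 1638 against 56.9 CPM, a log2 ratio of 4.82. DEGS2, a sphingolipid desaturase and hydroxylase, was at 1522 against 286 CPM (log2 ratio 2.41), was found in all 23 S100A8-rich cells and was higher at all 4 time points. ALDH3B2, an aldehyde dehydrogenase, was at 135 against 22.2 CPM (2.55), with UMIs in 19 of the 23 cells, and ALDH2, the mitochondrial aldehyde dehydrogenase, at 116 against 30.2 CPM (1.91). RDH16, a retinol dehydrogenase, was at 66.5 against 3.80 CPM (3.81) in 9 cells, and HSD17B6, a related steroid dehydrogenase, at 22.2 against 3.04 CPM (2.52) in 9 cells. AGPAT4, an acyltransferase of phospholipid synthesis, was at 20.4 against 1.52 CPM (3.09), from 12 UMIs. CD36, a fatty acid and lipoprotein receptor that macrophages also carry, was at 49.4 against 1.78 CPM (4.18), but its 29 UMIs came from 3 cells.

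SELENOP, a secreted carrier of selenium, was at 1045 against 226 CPM (2.20) and was detected in all 23 cells. PLK2, a stress-responsive polo-like kinase, was at 334 against 71.4 CPM (2.21) in 21 cells. CCL28, a chemokine of mucosal epithelium, was at 145 against 32.4 CPM (2.13) in 16 cells. MMP16, a membrane-bound metalloproteinase, was at 47.7 against 6.13 CPM (2.77) in 8 cells. ARHGAP15 and PRR15 rested on 17 and 13 UMIs. Of these 15 genes, 11 were higher at all 4 time points.

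The lower genes were mostly at a few UMIs in the S100A8-rich cells. Of the 10 with the lowest ratios, 7 had at most 3 UMIs there. All 10 were lower at each of the 4 time points, but a gene with so few UMIs reads lower wherever it has none. FLNA, the actin crosslinker filamin A, was at 17.0 against 91.0 CPM (log2 ratio -2.35), and SPINK13, a protease inhibitor, at 10.2 against 73.4 CPM (-2.73). XAGE2, a cancer-testis antigen, had 1 UMI, against 30.7 CPM in the other cells. BCAS1 was at 5.11 against 35.04 CPM, RBP7, a retinoid-binding protein, at 5.11 against 25.4 CPM, and SRGAP1 at 3.41 against 27.5 CPM. SOAT1, which makes cholesterol esters, MACF1, a cytoskeletal linker, and the noncoding FTX each had 2 UMIs, and AC008703.1 had 4.

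**Figure D3:**
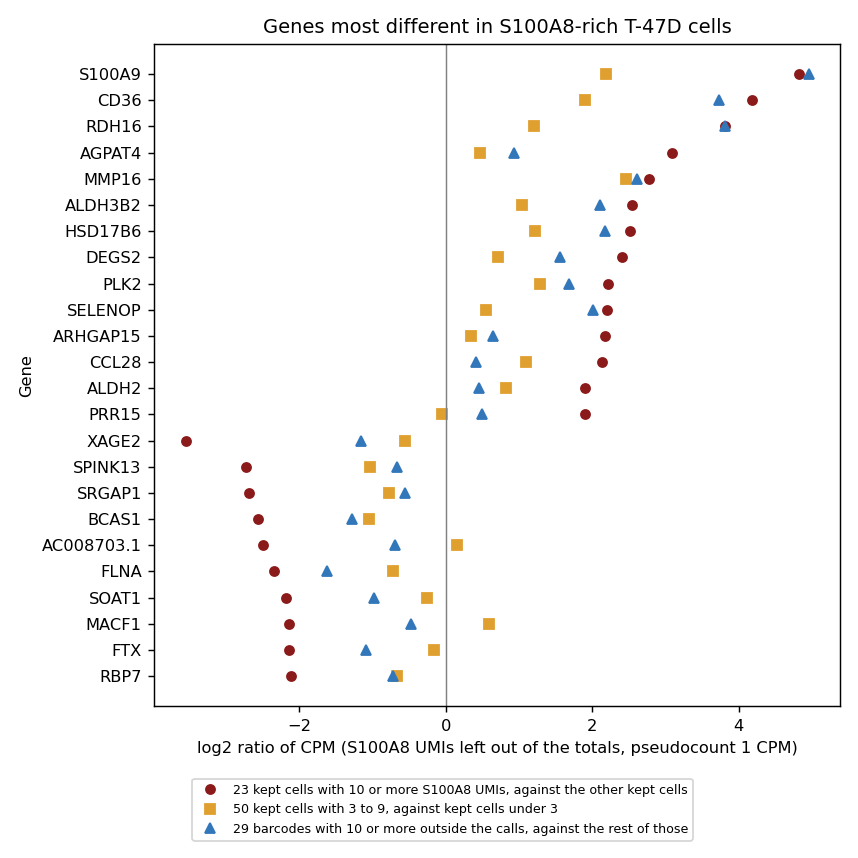
Of the 15 highest genes by log2 ratio 14, and the 10 lowest, in S100A8-rich T-47D cells (circles), with the same genes in cells with 3 to 9 S100A8 UMIs against cells with under 3 (squares) and in barcodes outside the time point calls with 10 or more S100A8 UMIs against the rest of those barcodes (triangles). Of the 14 higher genes drawn, 13 lie right of 0 in the squares and 14 in the triangles.

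The named genes had been chosen by their ratio in the 23 cells, so other cells and barcodes were examined. The 50 cells with 3 to 9 UMIs had been part of the comparison group in that choice. Barcodes outside the time point calls had played no part in it. S100A9, already seen to rise with S100A8, is counted among the 15 genes. In the 50 kept cells with 3 to 9 S100A8 UMIs, compared with those with under 3, 14 of the 15 higher genes were again higher and 8 were past 2-fold. Over all 7218 genes, 44.2% were higher there and 0.360% were past 2-fold higher. Outside the time point calls, 29 T-47D barcodes had 10 or more S100A8 UMIs, 6 called as doublets and 23 without a call. In these, all 15 genes were higher than in the other barcodes without a time point and 10 were past 2-fold, beside 53.9% and 1.15% of all genes. The 2 sides differed in depth. The 23 without a call had a median of 43518 UMIs, against 7023.5 over all 12120 barcodes without a call. Of those 12120, 2784 had under 2000 UMIs. The part of depth in these ratios was not tested. Of the 10 lower genes, 8 were lower in the cells with 3 to 9 UMIs and 10 in the barcodes outside the calls. SELENOP, RDH16, DEGS2, CD36, MMP16, ALDH3B2, HSD17B6, PLK2 and S100A9 were among the 10 genes past 2-fold outside the calls. Among T-47D barcodes called either to a time point or as a doublet, doublets made up 20.7% of those with 10 or more S100A8 UMIs (7.99% to 39.7%) and 23.8% of all. Doublets of equally tagged cells escape these calls. The 23 barcodes without a call are outside this share. It therefore does not give the part of doublets among all S100A8-rich barcodes.

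The same genes, which had been chosen by their ratio in the S100A8-rich cells, were then read in cells with S100A9 alone. In the 27 cells with 10 or more S100A9 UMIs and no S100A8, 11 of the other 14 higher genes were above their level in the 4111 cells with neither, and 3 were past 2-fold, MMP16 and CCL28 among them, beside 47.5% and 0.345% of 7251 genes. DEGS2 was at 427 against 277 CPM and SELENOP at 291 against 223 CPM. The median depth of the 27 cells was 27439 UMIs, above that of the S100A8-rich cells. The difference between these groups of cells was not tested.

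Among the gene lists, luminal secretory and hormone-linked genes differed in both directions in the S100A8-rich cells. Of 18 tested luminal and apocrine genes, 2 were past 2-fold higher and 2 lower, beside 1.68% and 4.67% of the 7218 genes tested. Their median log2 ratio was 0.02, beside -0.06 over all genes tested. AREG, an EGF receptor ligand, was at 182 against 58.3 CPM (log2 ratio 1.63), but 86.9% of its UMIs came from 1 cell and it was higher at 1 of 4 time points only. AZGP1, a secreted apocrine glycoprotein, was at 97.2 against 31.6 CPM (1.59) and was higher at all 4. PGR, the progesterone receptor and an estrogen target, was at 92.0 against 237 CPM (-1.35), and the trefoil factor TFF3 at 291 against 620 CPM (-1.09), both lower at all 4 time points. None of the 10 cell cycle genes passed 2-fold, and their median log2 ratio was 0.59. This median joined opposite directions, since all 10 were lower at 2 h and at 4 h, all 10 were higher at 8 h and 8 were higher at 0 h, and for each gene 1 cell held 32.6% to 60% of the UMIs. Of 30 squamous and barrier genes, 23 had no UMI in the S100A8-rich cells and 2 could be tested, neither past 2-fold, and of 21 genes of epithelial inflammation, 17 had no UMI and neither of the 2 tested passed. The genes of the squamous list with the highest ratios were under the minimum, CLCA2 with 10 UMIs in 4 cells (17.0 against 0.836 CPM) and the protease inhibitor SLPI with 6 UMIs in 3 cells (10.2 against 0.885 CPM). None of 6 tested hypoxia genes and neither of 2 tested interferon genes passed.

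Of 7 members tested in the S100A8-rich cells, S100A9 was the only one past 2-fold, where 1.68% of 7218 genes were higher and 4.67% lower. S100A11 was at 6355 against 4575 CPM (log2 ratio 0.47) and was higher at all 4 time points, and S100A13 was at 138 against 256 CPM (-0.89) and was lower at all 4. S100A4 was at 203 against 311 CPM (-0.61), S100A6 at 6435 against 8134 CPM (-0.34), S100A10 at 3908 against 4522 CPM (-0.21) and S100A16 at 472 against 535 CPM (-0.18). In the 29 barcodes outside the calls all 6 of these genes were higher than in the other barcodes there, from 0.21 for S100A6 to 0.79 for S100A11. Of these 6, S100A11 alone had the same direction in both sets. The comparison groups differed, however. All 6 were lower in the other barcodes outside the calls than in the other kept cells, with S100A6 at 5743.5 against 8134 CPM. In the S100A8-rich sums S100A6 was at 6632 CPM outside the calls and 6435 CPM in kept cells. The part of the comparison group in these directions was not tested. Of 14 tested S100 partners, IQGAP1 alone was past 2-fold, at 52.8 against 110 CPM (-1.05), where 4.67% of all genes tested were lower past 2-fold. Of the receptors of calprotectin, AGER had no UMI in the S100A8-rich cells and was at 0.566 to 0.696 CPM in the T-47D pools, and TLR4 had no UMI in any pool of either line.

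S100A6, S100A10 and S100A11 were the most abundant members in both lines. S100A6 was at 8520, 8148, 7929 and 7508 CPM in T-47D at the 4 time points in order, with intervals of 8488 to 8551 for the earliest and 7461 to 7556 for the latest. In Ishikawa it was at 1079, 1005, 1131 and 886 CPM, with intervals of 1063 to 1096 and 875 to 896. Every T-47D cell and 99.0% to 99.5% of Ishikawa cells had an S100A6 UMI. The annexin A2 partner S100A10 was at 4699, 4541, 4429 and 4211 CPM in T-47D and at 2212, 2076, 2238 and 1713 CPM in Ishikawa at 0, 2, 4 and 8 h. The annexin A1 partner S100A11 was at 4736, 4564, 4553 and 4317 CPM in T-47D and at 1416, 1357, 1360 and 1170 CPM in Ishikawa. In T-47D the top 1% of cells held 2.78% to 3.02% of the S100A10 and S100A11 UMIs, where genes of like level had medians of 2.63% to 2.92%. They held 3.65% to 3.81% of the S100A6 UMIs, a share that 1 or 2 of the 17 to 26 genes of like level reached.

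S100A4, S100A13, S100A14 and S100A16 were at middle levels. S100A4 (metastasin) was at 334, 298, 309 and 273 CPM in T-47D and at 73.4, 78.2, 76.8 and 58.8 CPM in Ishikawa over the 4 time points. It was uneven between cells, with 9.60% to 11.2% of its T-47D UMIs in the top 1% of cells, where genes of like level had medians of 3.37% to 3.57% and 6 to 14 of 627 to 805 such genes reached its share. S100A13, which takes part in the release of FGF1, was at 256, 261, 260 and 232 CPM in T-47D and at 355, 359, 352 and 288 CPM in Ishikawa. S100A16 was at 531, 565, 537 and 473 CPM in T-47D and at 94.1, 80.9, 85.5 and 76.3 CPM in Ishikawa. S100A14, its neighbour on chromosome 1, was at 28.7, 26.0, 27.8 and 25.6 CPM in Ishikawa, in 26.2% to 27.9% of cells, and at 0.934, 1.70, 1.01 and 0.851 CPM in T-47D, in 1.51% to 3.07% of cells.

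S100P, a member first described in placenta, was low in both lines. It had 24 UMIs in 13 of the 4613 Ishikawa cells. In T-47D it was at 8.77, 8.63, 9.61 and 6.73 CPM, under the minimum of 10 CPM, and was detected in 10.1% of cells. Like S100A8 it was held by few cells, with 36.8% to 42.8% of its UMIs in the top 1% against medians of 11.5% to 13.9% for genes of like level, but its highest count in a cell was 25. An S100A8 UMI was found in 7.92% of the 467 S100P cells (5.64% to 10.8%) and in 10.8% of the 4159 others (9.92% to 11.8%). These intervals overlap, and the share over all kept T-47D cells was 10.55%. S100P was found in 1 of the 23 S100A8-rich cells, beside 10.1% of all cells.

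**Figure D4:**
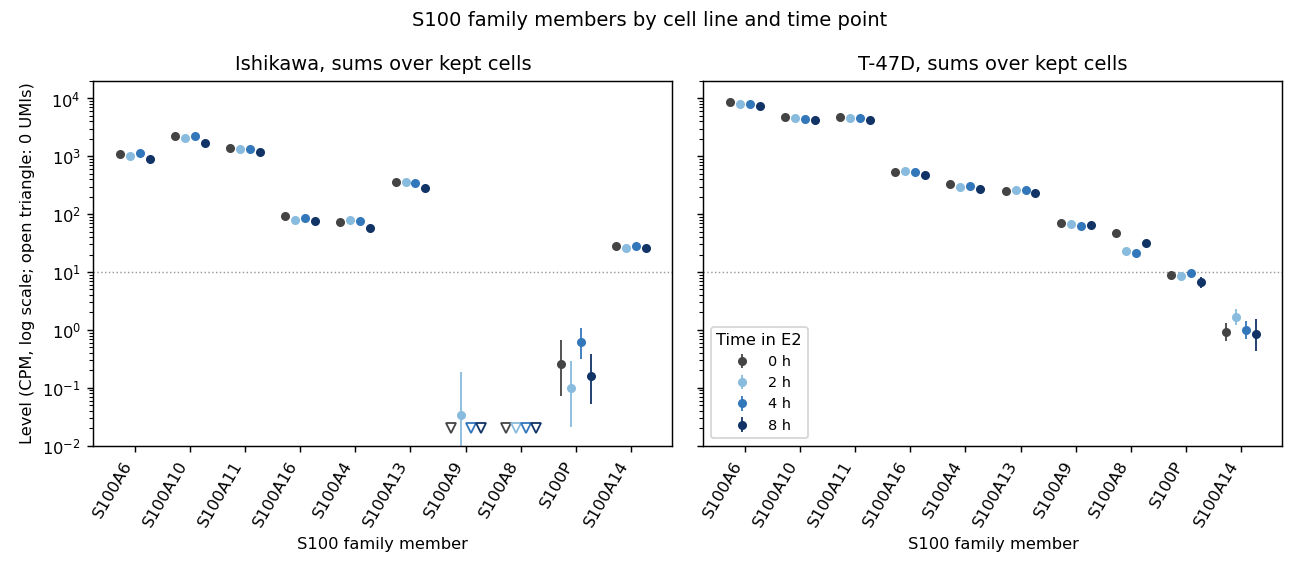
Level of each member in CPM on a log axis, in Ishikawa (left) and T-47D (right), over the E2 time course from 0 to 8 h, with exact 95% Poisson intervals; open triangles mark pools with 0 UMIs, and the dotted line the minimum of 10 CPM. S100A8 and S100A9 sit above 10 CPM in T-47D only, and S100A14 in Ishikawa only.

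Between the lines at 0 h, 8 of 9 members at or above the minimum differed by at least 2-fold, beside 34.2% of 8023 genes tested. S100A8, S100A9 and S100A14 reached this minimum only through the line where they were high, which fixed their calls. The set was also chosen by its distribution over T-47D cells, so these shares are a description only. T-47D was higher by 2.98 on the log2 scale for S100A6, 2.49 for S100A16, 2.17 for S100A4, 1.74 for S100A11 and 1.09 for S100A10. S100A8 and S100A9 had no UMI in the Ishikawa 0 h pool. S100A14 was the only member past 2-fold in the other direction, at -3.94, and S100A13 was at -0.47. At 4 h the difference of S100A10, at 0.98, was just under 2-fold, while the other calls were the same at 2, 4 and 8 h. Each line was 1 library, so line and library cannot be told apart.

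Apart from S100A8, no tested member was past 1.5-fold at any time after E2. In Ishikawa none of the 7 tested members was past 1.5-fold at 2, 4 or 8 h, when 1.45%, 1.26% and 1.28% of 7885 genes were. In T-47D, S100A8 alone of 8 tested members was past 1.5-fold, at 2 h and 4 h but not at 8 h, when 1.64%, 1.69% and 3.06% of 7440 genes were past it. The smaller differences at 8 h had 1 direction. All 7 Ishikawa members were lower at 8 h than at 0 h, where 49.7% of all genes were lower, with a median log2 fold change of -0.30 for the members and 0.00 for all genes. The members' median was -0.17 in cells with no TOP2A or MKI67 UMI, where 44.4% of genes were lower, and -0.17 over every cell with a time point call, where 56.4% were, with 7 of 7 members lower in both. All 8 T-47D members were lower, where 48.1% of all genes were lower, with medians of -0.16 and 0.01.

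At 8 h in Ishikawa the log2 fold change was -0.37 for S100A10 (95% counting interval -0.39 to -0.35), -0.28 for S100A6 (-0.31 to -0.26) and -0.16 for S100A14 (-0.34 to 0.00), with the other members between these values. In T-47D it was -0.29 for S100A4 (-0.35 to -0.24), -0.18 for S100A6 (-0.19 to -0.17) and -0.08 for S100A9 (-0.19 to 0.03), again with S100A10, S100A11, S100A13 and S100A16 between them. Without the 0 h T-47D cell with the most S100A8 UMIs, S100A8 and S100A9 were higher at 8 h than at 0 h, at 1.64 and 0.17, so that 6 of 8 members were lower. With 1 culture at each time point, a change after E2 and a difference between cultures cannot be told apart. The partners showed no such shared direction, with 8 of 14 tested partners lower at 8 h in each line. Of a list of 12 further genes, 11 of the S100 family and S100PBP, S100A2 (63.1, 61.7, 64.5 and 47.8 CPM) and S100PBP, which encodes an S100P-binding protein, were past the minimum in Ishikawa and S100A1 (33.7, 30.9, 29.5 and 29.2 CPM) in T-47D, none past 1.5-fold.

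Across cells, members formed groups that resembled each other in both lines. S100A10 and S100A11, neighbours on chromosome 1, had the highest correlation between members, at r = 0.74 in 4626 T-47D cells and 0.57 in 4613 Ishikawa cells on log2(UMIs per 10000 + 1) centred within time points. S100A6 correlated with S100A10 at 0.60 and 0.46 and with S100A4 at 0.49 and 0.36. S100A14 and S100A16, which lie next to each other, correlated at 0.41 in Ishikawa. The median over member pairs was 0.17 in T-47D (28 pairs) and 0.25 in Ishikawa (21 pairs), beside 0.07 and 0.10 for pairs of genes of at least 200 CPM. All points share a library and their depth, and genes of high level correlate more, so these are descriptions.

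**Figure D5:**
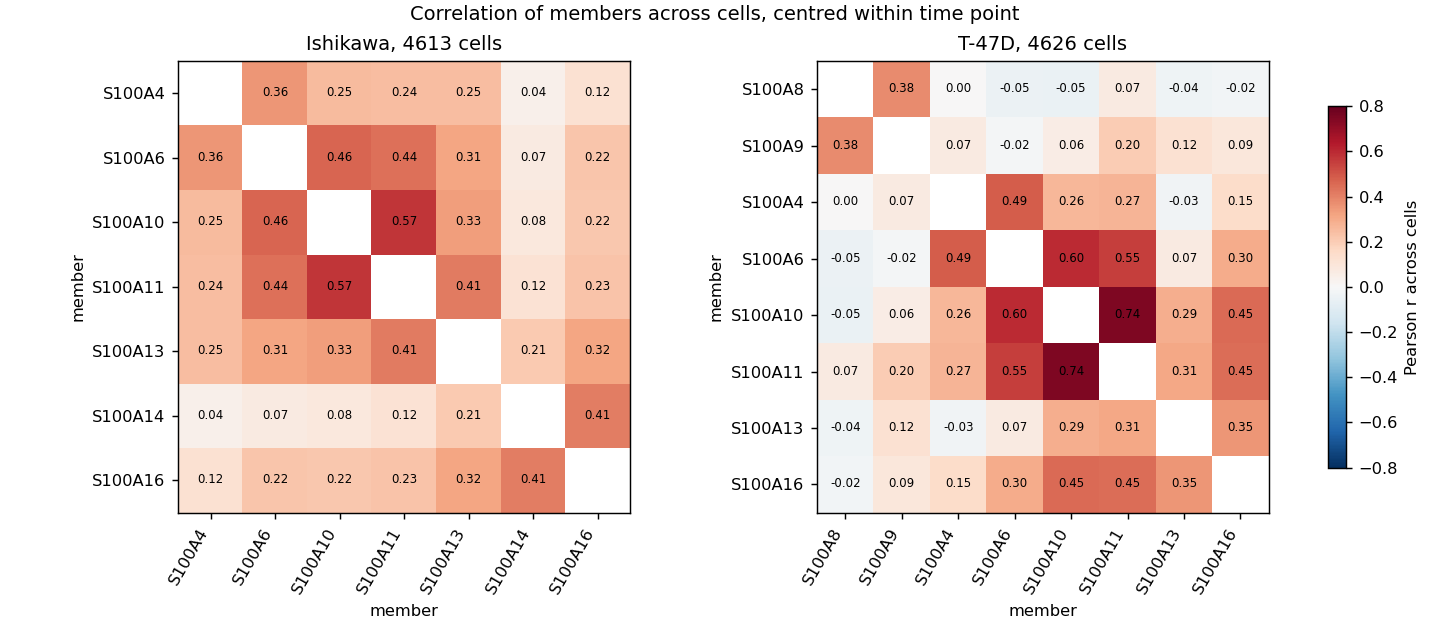
Pearson correlation between members across cells, centred within time point, for members of at least 10 CPM in Ishikawa (left) and T-47D (right), with red for positive and blue for negative values. S100A10 and S100A11 are the closest pair in both lines, and S100A8 correlates with S100A9 at 0.38 and with no other member above 0.07.

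S100A8 stood outside this group, with r from -0.05 to 0.07 with every member but S100A9. It had no UMI in 89.45% of T-47D cells, and r of a gene so seldom detected tends to be low. With the members other than S100A8, S100A9 also had low values, from -0.02 with S100A6 to 0.20 with S100A11. The genes most like S100A8 across T-47D cells were S100A9 (0.38), SELENOP (0.18) and DEGS2 (0.18), and those most like S100A9 were S100A8, DEGS2 (0.23) and S100A11 (0.20). For S100A10 and S100A11 the most alike genes outside the family were TMSB4X (0.60 with S100A10) and TMSB10 (0.55 with S100A11) in Ishikawa, which encode actin-binding thymosins, and the myosin light chain MYL6 (0.65 and 0.63) in T-47D. S100A4 was most like S100A6 in both lines, and in T-47D also like SPINK13 (0.30). S100A14 was most like S100A16, SMIM22 (0.30) and WFDC2 (0.27), and S100A16 in Ishikawa like S100A14, KRT17 (0.37) and S100A13 (0.32). S100A13 was most like TMSB10 (0.42) in Ishikawa and the ribosomal protein gene RPL10 (0.40) in T-47D.

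Some members overlap other S100 genes in RefSeq. S100A13 spans S100A1, the S100A8 locus reaches into S100A7A, and S100A4 overlaps S100A5 by its outer bases. The sources used here do not say whether counting took strand into account, and reads in an overlap may be assigned to either gene. S100A1 was at 4.65 to 6.93 CPM in Ishikawa. S100A5 was at or under 0.636 CPM in every pool, and S100A7A had no UMI in any pool.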

How the data were processed

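Per the labels and the study's methods, the authors prepared 10x Genomics 3′ libraries, 1 per line, and deposited the gene by barcode matrices of Cell Ranger 3.1.0 on hg38. The deposited values are whole-number counts of UMIs per gene and barcode, made by the authors with Cell Ranger and not normalized. MULTI-seq calls of time point, doublet or neither were taken from the deposited tables. The strand used in counting is not given in the sources used here. The Ishikawa matrix also lists 2 reporters, GFP and tdTomato, which were left out of the genes tested.

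Kept cells had a call to 1 time point and met the study's limits on UMIs, genes and mitochondrial share. UMIs were summed by line and time point and given as CPM (UMIs per 1000000 UMIs of the pool), and log2 ratios used a pseudocount of 1 CPM. Genes with a mean of at least 10 CPM were tested against a limit of 1.5-fold over time, or 2-fold between lines and between S100A8-rich and other cells. Shares have exact Clopper-Pearson intervals and levels exact Poisson intervals at 95%; a UMI is not an independent culture, so both cover counting error only. Cells were thinned to 12539 (Ishikawa) or 14495 (T-47D) UMIs for shares at 1 depth, and shallower cells were left out. Named genes were all 10 members, members of the gene lists, the 15 highest and 10 lowest genes by ratio in S100A8-rich cells, and the 3 genes most correlated with each member. The members and lists were chosen with earlier results of these data known. Python 3.11.15, numpy 2.4.6, pandas 2.3.3, SciPy 1.17.1 and matplotlib 3.10.9 were used, and edgeR 4.0.16 in R 4.3.3 for TMM factors in 1 alternative. The summing and ratio steps were tested on simulated data. Of the 15 highest genes, 1 is counted but not reported here.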

Additional observations from a re-analysis of the deposited data

Results flagged for a closer look

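S100A8-rich barcodes were also found in data that the comparisons over time do not use. Outside the time point calls, 29 T-47D barcodes had 10 or more S100A8 UMIs, which with the 23 kept cells made 52 in all. Of these 29, 6 were among 1442 doublet calls, the highest with 1459 S100A8 UMIs, and 23 were among 12120 barcodes without a call, the highest with 287. The 23 had a median of 43518 UMIs, and 17 of them lay among the 808 uncalled barcodes over 40000 UMIs, a share of 2.10% (1.23% to 3.35%), against 0.497% of kept cells. Depth and doublets move with this count, and their part in it was not tested.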

How the results depend on the processing

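Of 278 values computed under other settings, 16 could not move, because every T-47D cell with a time point call was kept. Of the other 262, 170 stayed close to the reported value and 92 did not. In 24 of the values the sign changed, 17 of S100A8 and 7 of S100A9, all in T-47D. For S100A8 the log2 fold changes at 2, 4 and 8 h, reported as -1.02, -1.15 and -0.57, were 1.45, 1.24 and 1.87 with an upper limit of 1.5 times the median UMIs, 1.71, 1.57 and 2.29 in cells without TOP2A or MKI67, 0.12, 0.054 and 0.0197 without the 1% of cells with the most UMIs of the gene, -0.44, -0.41 and 0.23 as a mean over cells, and -0.56, -0.54 and 0.073 in thinned cells. With a pseudocount of 5 the 2 and 4 h values were -0.91 and -1.02. In alternatives chosen after seeing the data, they were 1.19, 1.07 and 1.64 without the richest 0 h cell, and 0.90, 0.0481 and 1.04 without the richest cell of each time point. Each of the settings that reverse a value leaves out or down-weights the 0 h cell with 1277 S100A8 UMIs.

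The count of T-47D members past 1.5-fold went from 1 to 0 with a minimum of 50 CPM, as a mean over cells, without the top 1% of cells and in thinned cells, and in Ishikawa from 0 to 1 (S100A10) at a lower fold limit. The share of S100A8 UMIs in the top 1% of all kept cells, 83.2%, was 74.2% under the upper limit, 78.8% without TOP2A or MKI67 cells, 72.5% without the richest cell, 81.8% thinned and 92.1% for the top 5%; for S100A9, 21.9% became 18.7%, 19.1%, 17.6%, 19.8% and 41.9%. Co-detection of 66.2% against 48.4% became 58.7% against 40.6% thinned, and 77.2% against 26.4% at a minimum of 2 UMIs. The 23 S100A8-rich cells became 73 at 3 UMIs, 11 at 30 UMIs and 11 at 10 per 10000. The 121 higher genes became 435, 489, 661 and 801 at 0, 2, 4 and 8 h alone and 185 without 2 h, and the 337 lower genes 768, 868, 1038 and 1188. For members other than S100A8, 154 of 161 values at 8 h kept their sign. In Ishikawa all values at 8 h stayed below 0 but became smaller without TOP2A or MKI67 cells and over every cell with a call, from -0.32 to -0.10 and -0.21 for S100A4, from -0.28 to -0.15 and -0.16 for S100A11, and to -0.14 over every cell for S100A16. No paired analysis was possible because each line and time point was 1 culture.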
